A study of Homo sapiens with 2 samples.

Results

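FOSL1 and HMGA1 were followed by every probe set that carried either gene symbol, which gave 2 of 14884 named genes and 3 of 53427 probe sets. FOSL1 (Entrez gene 8061) had 1 probe set and HMGA1 (Entrez gene 3159) had 2. Both genes were chosen with earlier results of these data known, FOSL1 because it was the siRNA target and HMGA1 because it has been described as a gene that AP-1 activates. The arrays measured RNA and not binding to DNA, so whether FOSL1 occupied the HMGA1 gene in these cells was not measured.

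The cells were UACC62, an established human melanoma line. One culture received a non-targeting siRNA (1 array, called control siRNA) and the other a FOSL1-specific siRNA (1 array, called FOSL1 siRNA), and both were harvested on day 3. By its title the series is about FOSL1 as a driver of melanocyte reprogramming, and the 2 arrays ask what else differs once FOSL1 RNA has been reduced. The sources used here do not say whether the siRNA was 1 sequence or a pool. No array had another FOSL1 siRNA to compare with. Effects of the reagent on other transcripts and effects of less FOSL1 therefore cannot be told apart.

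FOSL1, also called FRA1, is a basic leucine zipper protein of the FOS family. It cannot act alone: it pairs with a JUN protein to form AP-1, which binds a short palindromic DNA motif and carries signals of the ERK kinase pathway to genes of invasion and growth. HMGA1 is a small, abundant protein of the high mobility group that grips the minor groove of AT-rich DNA through its AT-hooks, bends it and helps other transcription factors assemble. It is plentiful in embryonic tissue and in many tumours, and low in most adult tissues.

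The upstream sequences of HMGA1 are shown because HMGA1, unlike FOSL1, was not the target of the siRNA. The RefSeq promoter windows (GRCh38.p14) each cover 250 bases before and 50 after a start site, and 1 of the 2 genes, HMGA1, was matched, with 2 windows. The 250 bases before each start are printed 5′ to 3′, with GC boxes (GGGCGG or its reverse complement CCGCCC) in capitals.
HMGA1 first window, chr6:34236623-34236872, plus strand: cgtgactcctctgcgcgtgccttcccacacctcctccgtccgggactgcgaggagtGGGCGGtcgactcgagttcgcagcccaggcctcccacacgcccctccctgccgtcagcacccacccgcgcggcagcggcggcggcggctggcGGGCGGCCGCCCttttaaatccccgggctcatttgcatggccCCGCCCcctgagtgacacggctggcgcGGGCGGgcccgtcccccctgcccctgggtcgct
HMGA1 second window, chr6:34238541-34238790, plus strand: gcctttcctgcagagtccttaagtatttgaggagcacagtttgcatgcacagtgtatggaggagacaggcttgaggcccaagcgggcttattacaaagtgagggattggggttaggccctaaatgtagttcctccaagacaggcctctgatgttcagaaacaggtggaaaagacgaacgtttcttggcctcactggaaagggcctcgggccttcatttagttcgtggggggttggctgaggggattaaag
The first window held 5 GC boxes and was 72% G and C over its 300 bases, against a median of 58.7% over 35116 windows. The second held 0 GC boxes and was 53% G and C. The AP-1 motif, searched as TGACTCA and TGAGTCA, which are reverse complements of each other, was found in neither window. These letters stood in 4.95% of all windows in the table, whereas a GC box stood in 45.0%. The related CRE motif TGACGTCA and the E-box CACGTG, each its own reverse complement, were also absent from both windows, against shares of 1.85% and 7.26% of all windows. Counted by gene, the share with a GC box was higher. It stood in a window of 78.1% of 5996 genes with a window that passed the filter described below.

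FOSL1 was measured by probe set 16740630, which read 11.90 on the log2 scale with control siRNA and 10.38 with FOSL1 siRNA. The array with FOSL1 siRNA was thus the low one, as its label gives, at 34.7% of the control value. The log2 difference was -1.53, or 2.88-fold lower. No gene was lower among the 7442 whose mean log2 value reached 8.021, the median over named genes. That filter on dim genes is used for every count that follows unless stated. The knockdown was partial on this scale, and the remaining value of 10.38 lay above the filter. In RNA from whole cultures, fewer cells with the transcript and less transcript per cell cannot be told apart.

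HMGA1 was lower with FOSL1 siRNA on both of its probe sets. The brighter, 17117871, read 11.76 with control siRNA and 11.31 with FOSL1 siRNA on the log2 scale, and the dimmer, 17007620, had 11.37 and 10.79. The brighter probe set therefore kept 73.0% of its control value and the dimmer 66.6%. As log2 differences these were -0.45 and -0.59, or 1.37-fold and 1.5-fold lower. The table ties the probe sets to different RefSeq transcripts of the gene. HMGA1 has processed pseudogenes of near-identical sequence elsewhere in the genome, and the sources used here do not say whether either probe set also reads these.

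**Figure D1:**
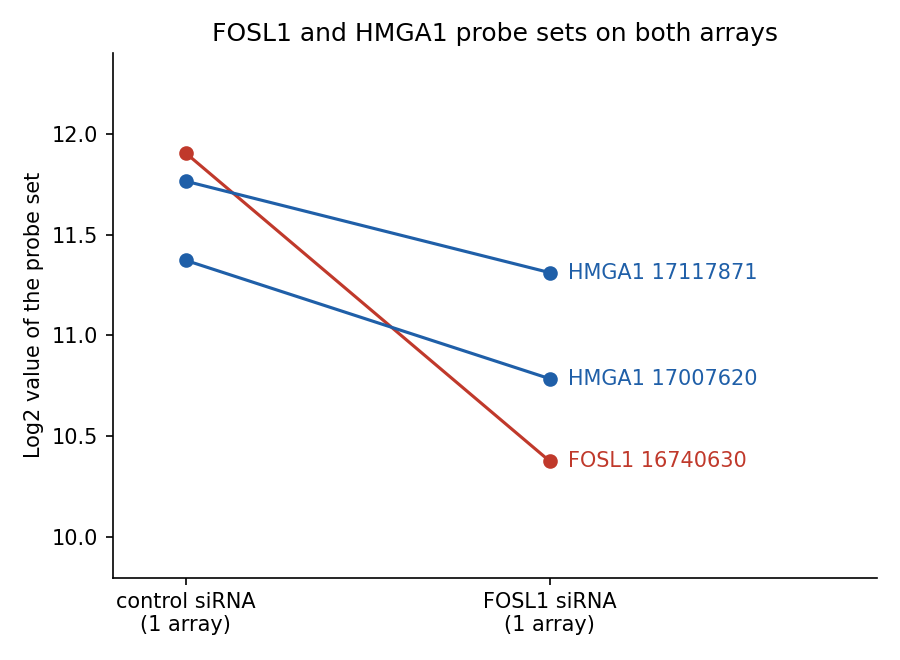
Log2 value of each FOSL1 (red) and HMGA1 (blue) probe set on the 2 arrays, with a line joining the values of 1 probe set. All 3 probe sets were lower with FOSL1 siRNA, FOSL1 from 11.90 to 10.38 and the HMGA1 probe sets from 11.76 to 11.31 and from 11.37 to 10.79.

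With 1 array per condition there was no replicate, no test was run, and every difference describes these 2 arrays. A partial yardstick came from genes with several probe sets past the filter. Over 213 such genes, the 2 brightest probe sets gave differences with a median gap of 0.082 log2 units, and the SD of single probe sets derived from these gaps was 0.169. In 28 of the 213 pairs the 2 probe sets shared identical values on both arrays, so the spread is understated for the remaining 185 pairs. The HMGA1 probe sets lay 0.134 apart, and 81 genes had a larger gap. HMGA1 was 1 of 2 genes, or 0.939% of the 213, in which every probe set was at or below -0.45. The other was the microRNA gene MIR877, with differences from -0.51 to -0.50 on its 7 probe sets. This yardstick was set at the HMGA1 value after that value was known, and it leaves out any variation between cultures.

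**Figure D2:**
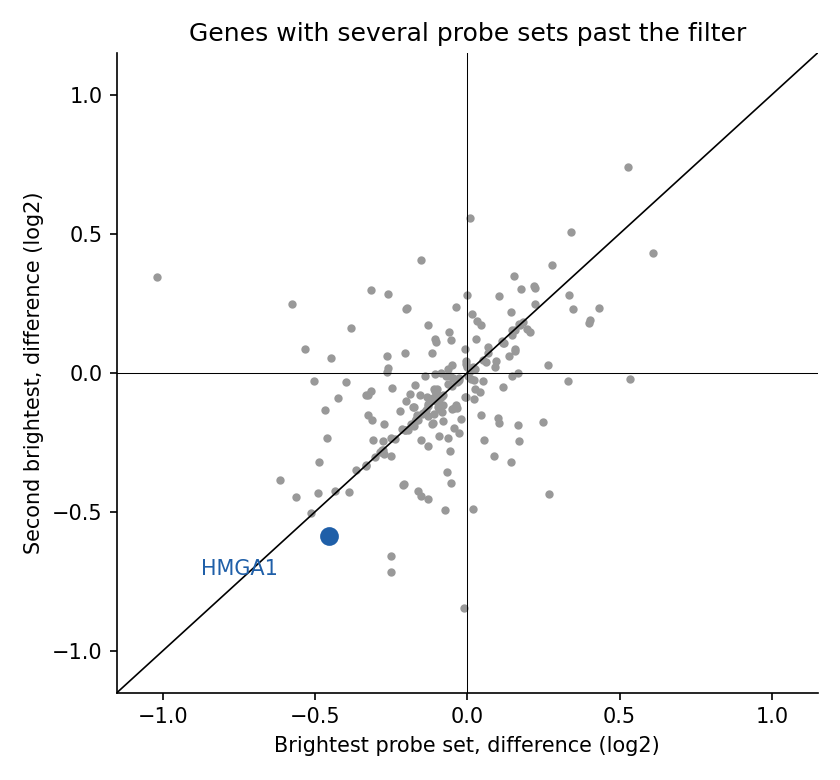
Log2 difference (FOSL1 siRNA minus control siRNA) of the brightest probe set against that of the second brightest for 213 genes with several probe sets past the filter; the diagonal marks equal values. HMGA1 (blue) lies at -0.45 and -0.59, in the lower left of the cloud.

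Among the 7442 genes past the filter, FOSL1 was the lowest and HMGA1 lay in the lower tail. Of these genes, 57 (0.766%) were at least 1.5-fold lower and 84 (1.13%) at least 1.5-fold higher. At least 2-fold lower were 3 (0.0403%), FOSL1 among them, and at least 2-fold higher were 6 (0.0806%). By its brighter probe set HMGA1 did not reach 1.5-fold, and 155 genes, 2.08% of those past the filter, were at least as low. Among the 738 genes whose mean log2 value lay within 0.5 of that of HMGA1, 11 (1.49%) were at least as low, and 5 of the 738 were at least 1.5-fold lower. For FOSL1 the same window held 1051 genes, and again no other was as low.

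**Figure D3:**
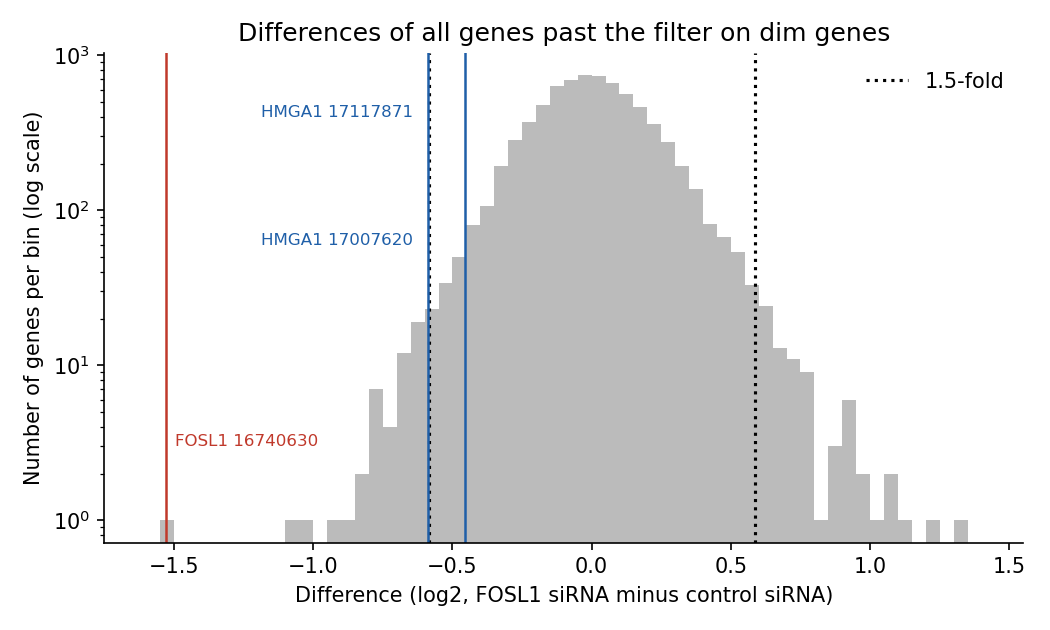
Histogram of log2 differences (FOSL1 siRNA minus control siRNA) of 7442 genes past the filter on dim genes, with the number of genes per bin on a log scale, dotted lines at 1.5-fold and coloured lines at the member probe sets. FOSL1 stands alone at -1.53, while the HMGA1 probe sets at -0.45 and -0.59 lie within the lower tail, on either side of the 1.5-fold line.

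Both genes are short, and short genes had lower differences on these arrays. FOSL1 spans 8.50 kb and HMGA1 9.36 kb in the RefSeq table of GRCh38.p14, against a median of 27.4 kb for genes past the filter. When genes were ranked by span and cut into 5 groups of like size, the group with the shortest spans, up to 7.78 kb, had low values. Its median difference was -0.12 and 72.5% of genes lay below 0. The next group, which holds both members, had a median of -0.05, and the group with the longest spans 0.09. Among 1845 genes spanning at most 10 kb, a limit chosen after the data were seen, 88 (4.77%) were at least as low as HMGA1 and FOSL1 was again the lowest. Of these short genes 1.9% were at least 1.5-fold lower. With a loess trend on span removed, FOSL1 lay at -1.45 and HMGA1 at -0.38. The part of span in the HMGA1 difference was not tested further.

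**Figure D4:**
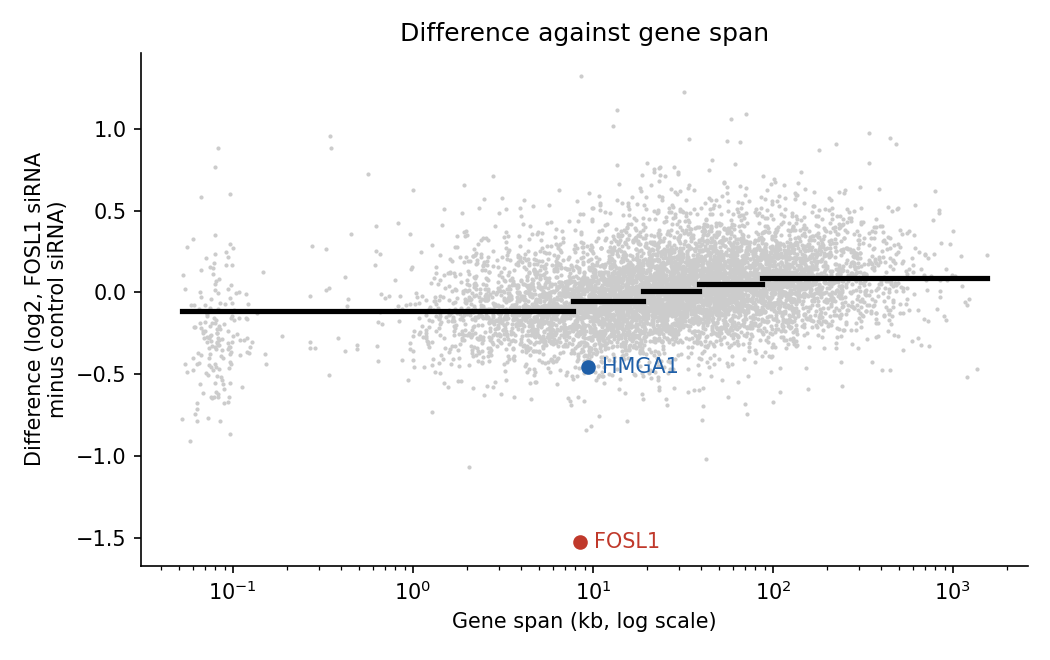
Log2 difference (FOSL1 siRNA minus control siRNA) against gene span in kb on a log scale for 7442 genes (grey), with a black bar at the median of each of 5 groups of genes by span. The bars run from -0.12 for the shortest genes to 0.09 for the longest, and FOSL1 (red, -1.53) and HMGA1 (blue, -0.45) lie below the bar of their own group.

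The genes of proteins that FOSL1 pairs with or resembles lay within 1.5-fold of control, as did most genes past the filter. Of 28 AP-1 family genes listed, 22 had a named probe set and 20 passed the filter. Of the 19 other than FOSL1, 13 were below 0 and 6 above. None was 1.5-fold away from control in either direction, where 0.766% of all genes were that much lower and 1.13% higher. The median of the 19 was -0.06 against -0.00 for all genes. JUN, a main partner of FOS proteins, had log2 values of 10.26 and 9.78 and the largest difference of them, -0.48. JUND and JUNB, the other JUN proteins, differed by -0.29 and -0.13. JDP2, a JUN-binding repressor, went from 8.41 to 7.98, a difference of -0.44, and the second value is under the filter.

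The other FOS proteins could take the place of FOSL1 in AP-1, and none of their brightest probe sets was higher with FOSL1 siRNA. FOS differed by -0.04 on its brighter probe set and -0.13 on its dimmer, and FOSL2, the closest relative of FOSL1, by -0.04. FOSB gave -0.22 on its brighter probe set and 0.08 on its dimmer, so its direction was not the same on both.

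The remaining leucine zipper genes lay on both sides of 0, from -0.24 for ATF6B to 0.35 for CREM. ATF2, which pairs with JUN on CRE sites, differed by -0.06, ATF4 by -0.00, ATF5 by -0.12, ATF6 by 0.01 and ATF6B by -0.24. ATF3, a stress-induced repressor, was under the filter with a difference of -0.18. Of the MAF proteins, MAFA differed by -0.22, MAFF by -0.07, MAF by 0.05 and MAFG by 0.09, and their relative NRL by 0.02. CREB1, the cyclic AMP response factor, differed by 0.00 and CREB5 by 0.19. CREM, of the same group, was under the filter at 0.35. Short genes stand among these too: 8 of the 19 span at most 10 kb, JUN, JUNB and JUND included.

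The other high mobility group genes lay on both sides of 0, all within 1.5-fold of control, as were most genes. Of all genes past the filter, 0.766% were at least 1.5-fold lower and 1.13% at least 1.5-fold higher. Of 23 listed genes of HMG chromatin proteins, 20 had a named probe set and 14 passed the filter. Of the 13 other than HMGA1, 4 were below 0 and 9 above, their median was 0.05, and their differences ran from -0.25 to 0.34. HMGA2, the only other AT-hook protein of the HMGA type, had log2 values of 9.94 and 9.99. Its difference of 0.05 became -0.00 with the span trend removed, so HMGA2 had no direction.

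HMGB and HMGN proteins, which bend DNA through HMG boxes and bind nucleosomes respectively, lay above 0 where measured. HMGB1, an abundant DNA-bending protein, went from 8.01 to 8.35, a difference of 0.34. HMGB2 and HMGB3 differed by 0.06 and 0.01, and HMGB4, at a difference of 0.11, was under the filter. HMGN4 and HMGN3 differed by 0.31 and 0.18. HMGN1, HMGN2 and HMGN5 were under the filter, with differences of 0.29, 0.14 and 0.58, the last between log2 values of 6.07 and 6.66. All 5 named HMGN genes and all 4 named HMGB genes were thus above 0, 5 of these 9 past the filter. Over all genes past the filter 50.1% were below 0. HMGB2, HMGB3, HMGB4 and HMGN2 lay closer to 0 than the probe set SD of 0.169, and HMGN3 was barely beyond it. Several of these genes have many near-identical pseudogenes, so their values are uncertain.

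The other genes with an HMG box lay on both sides of 0. SSRP1, a subunit of the histone chaperone FACT, differed by 0.06, BBX by 0.07, HMGXB4 by 0.02 and HMGXB3 by -0.01. HMG20B, a subunit of a repressor complex with a histone demethylase, had -0.12. TOX2 was the lowest after HMGA1 at -0.25, with TOX4 at -0.06, while TOX and TOX3, both under the filter, were at 0.02 and -0.02.

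**Figure D5:**
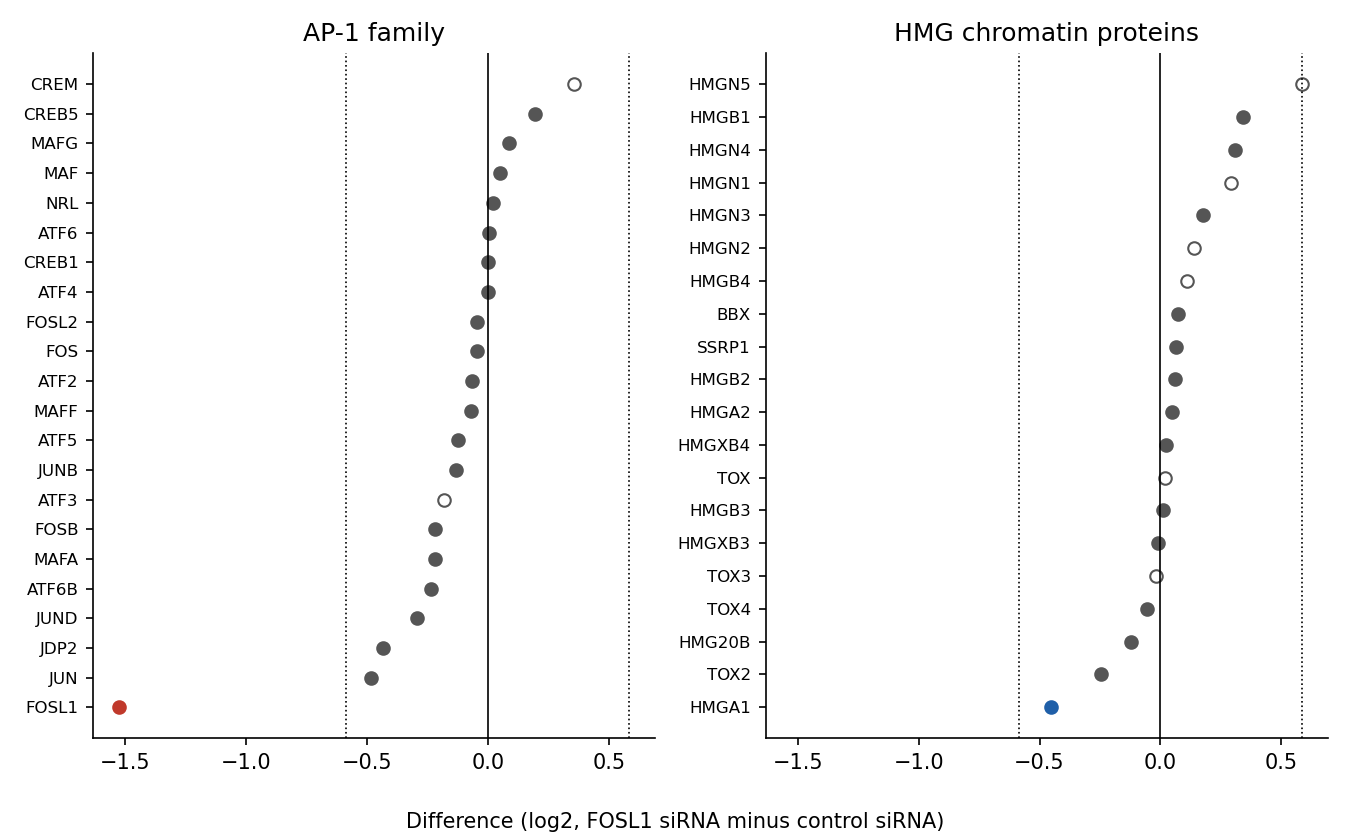
Log2 differences (FOSL1 siRNA minus control siRNA) of named genes of the AP-1 family (left) and of HMG chromatin proteins (right), 1 point a gene from its brightest probe set; filled points passed the filter on dim genes, open points did not, and dotted lines mark 1.5-fold. FOSL1 (red, -1.53) and HMGA1 (blue, -0.45) are the lowest point of their panel, with JUN (-0.48) next to FOSL1 and TOX2 (-0.25) next to HMGA1.

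Other proteins that shape chromatin fibres were mostly above 0. Of 25 linker histone and architectural genes past the filter, of 42 listed, 22 were above 0 and 3 below, and the median was 0.13. None reached 1.5-fold, and neither did most genes past the filter. Over all genes past the filter 50.1% were below 0, and in the 2 groups with the longest spans 37.6% and 31.7% were. TOP2B, a topoisomerase that relieves DNA strain, was at 0.41 and STAG1, a cohesin subunit, at 0.32. BANF1, which tethers DNA to the nuclear envelope, was on the other side at -0.33, and LMNA, the nuclear lamin A/C, at -0.22. No linker histone had a named probe set, and 1 of the 25 genes spans at most 10 kb. With the span trend removed the median of the list was 0.11.

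Among described FOSL1 or AP-1 target genes, HMGA1 lay on the lower side but not at its end. Of 52 listed genes, 25 passed the filter, and of the 24 other than HMGA1, 13 were below 0 and 11 above, with a median of -0.04. At least 1.5-fold lower were 2 of the 24 and at least 1.5-fold higher were 2, against 0.766% and 1.13% of all genes. The list was drawn up with earlier results of these data known, so these shares cannot show an excess among described targets. UCN2, the peptide hormone urocortin 2, was listed with its value known, and had log2 values of 11.94 and 10.87, a difference of -1.07. MMP1, the collagenase that cleaves fibrillar collagen, went from 9.09 to 8.46, a difference of -0.64. In the opposite direction PTGS2, the inducible cyclooxygenase, went from 10.90 to 12.22 and the chemokine CCL2 from 9.53 to 10.19, differences of 1.32 and 0.65. The cytokine LIF, picked for naming once its values were known, was at -0.56, close to the dimmer HMGA1 probe set.

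The AP-1 motif gave another view of these genes. It stood in a window of 3 of the 19 described targets that passed the filter and had a window, UCN2, CXCL8 and EZR, and in 266 (4.44%) of 5996 genes past the filter with a window. Of genes at least 1.5-fold lower, 27 of 57 had a window and 4 of the 27 held the motif. UCN2, listed as a target with its value known, is among these 4 as well, so the counts overlap. Of genes at least 1.5-fold higher, 54 of 84 had a window and 2 held it. These are counts of letters, no test was run on them, and a match is not a binding site. A stretch around the motif is printed for these genes because they can be set beside HMGA1, whose windows lacked it; capitals mark the motif, each stretch is read 5′ to 3′ on the strand of its gene (GRCh38.p14), and the genes were chosen after their values were seen.
UCN2, chr3:48563865-48563895, minus strand: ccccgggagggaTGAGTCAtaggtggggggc
COLQ, chr3:15498957-15498987, minus strand: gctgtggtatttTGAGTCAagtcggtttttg
CD68, chr17:7579526-7579556, plus strand: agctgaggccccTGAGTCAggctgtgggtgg
LYPD1, chr2:132671718-132671748, minus strand: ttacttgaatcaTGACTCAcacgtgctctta
EZR, chr6:158818273-158818303, minus strand: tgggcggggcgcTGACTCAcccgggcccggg
CXCL8, chr4:73740420-73740450, plus strand: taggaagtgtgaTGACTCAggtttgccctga
FGL2, chr7:77199850-77199880, minus strand: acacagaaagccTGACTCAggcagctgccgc
ZNF235, chr19:44305144-44305174, minus strand: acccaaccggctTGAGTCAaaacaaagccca
The first 4 were at least 1.5-fold lower. The difference was -1.07 for UCN2, -0.74 for COLQ, which anchors acetylcholinesterase, -0.63 for CD68, a lysosomal glycoprotein, and -0.59 for LYPD1. EZR, the membrane linker ezrin, had -0.07. CXCL8, the chemokine interleukin-8, had 0.58, just under 1.5-fold higher. FGL2, a fibrinogen-like protein, had 0.63 and the zinc finger gene ZNF235 had 0.72. The motif thus stood in windows of genes on both sides of 0. It began 102 bases before the start site in UCN2 and 137 bases before it in CXCL8.

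Genes described as regulated by HMGA1 or acting with it lay on both sides of 0. Of 34 past the filter other than FOSL1, 14 were below 0 and 20 above, with a median of 0.03. Only PTGS2, given above, exceeded its control value by 1.5-fold or more, and none of the 34 lay below control by as much. Among all genes past the filter such differences were rare too, 1.13% upward and 0.766% downward. A list of 34 genes is too short to be set apart from these shares. FGF19, a growth factor named after its values were seen, was the lowest at -0.49, with a value under the filter with FOSL1 siRNA. JUN, on this list as well, was next at -0.48.

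Genes of the ERK pathway, upstream of FOSL1, and of its output lay on both sides of 0. Of 28 past the filter other than FOSL1, 19 were below 0 and 9 above, and the median was -0.11, or -0.05 for the whole list with the span trend removed. VGF, a neuropeptide precursor, and MAP2K2, the kinase MEK2, were at least 1.5-fold lower, 2 of 28 against 0.766% of all genes. This list too was drawn up with earlier results of these data known, so the shares are not an independent comparison. VGF went from 10.64 to 9.98 and MAP2K2 from 8.65 to 8.04. The receptor EPHA2 and the kinase MAP2K5 were highest, at 0.49 and 0.46. SRF, a transcription factor of the serum response named after its values were seen, was at -0.49. Of the 28, 13 span at most 10 kb.

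Genes of the MYC program and of the let-7 pathway showed no difference of 1.5-fold, and neither did most genes past the filter. Both lists hold described targets beside regulators, so they are not a survey of what acts on HMGA1. HMGA1 has itself been described as a MYC target and a let-7 target. MYC went from 10.40 to 10.27, a difference of -0.12. The MYC list of 30 genes holds targets of growth but also MYC, MAX and MYC antagonists, so its median is no measure of MYC output. Of the 30, 19 were below 0, with a median of -0.06. Lowest were NOLC1, a nucleolar phosphoprotein, and MXI1, a MYC antagonist, at -0.55 and -0.35. On their other side NOP58 and EIF4E were at 0.17 and 0.16. With the span trend removed the median was -0.01. Of 15 let-7 genes past the filter other than HMGA1, 7 were below 0 and 8 above, with a median of 0.04. LIN28B, the inhibitor of let-7 processing, was highest at 0.39 and IGF2BP1 next at 0.25, while HRAS was at -0.27.

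Genes of the RNA interference machinery were listed because both cultures received siRNA. Of 18 listed symbols, 7 had a named probe set, and all 7 passed the filter. Dicer and the Argonautes had no named probe set, so they were not read. Of the 7, 6 were above 0, with a median of 0.09, where 50.1% of all genes past the filter were below 0. With the span trend removed the median was 0.04. Only TARBP2 of the 7 spans at most 10 kb. TARBP2, which loads small RNAs with Dicer, was at -0.32, and the Argonaute partners TNRC6C and TNRC6B were at 0.26 and 0.22.

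The genes whose pair of log2 values lay closest to that of FOSL1 over the 2 arrays were UCN2, DUSP10, NOLC1, SMAGP and DUSP14. Their distances ran from 0.496 to 0.762 log2 units, so none had nearly the values of FOSL1. DUSP10 and DUSP14, phosphatases of the MAP kinase family, differed by -0.78 and -0.46. For HMGA1 the closest were TMEM160, NPIPB3, ARL2BP, LPXN and PVR, at distances from 0.0735 to 0.125, with differences from -0.58 for NPIPB3 to -0.30 for PVR. The second brightest probe sets of NPIPB3 and ARL2BP went the other way, at 0.25 and 0.30, so their direction was not the same on both. NPIPB3 has near-identical copies in the genome, which leaves its value uncertain. In the order of differences, CD300C, KRTAP10-2 and CCN3 stood just below HMGA1 and PODXL, CALML3 and CHST6 just above it, all 6 within 0.01 of its -0.45. Likeness over 2 arrays rests on 2 values a gene, and probe sets differ in response, so like values are not like amounts of RNA.

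The nearest named genes along the chromosome lay within 1.5-fold of control around both members, as did most genes past the filter. The 6 around FOSL1 were all below 0, from C11orf68 at -0.38 and CCDC85B at -0.31, the closest on either side, to SART1 at -0.11. DRAP1 was at -0.26, FIBP at -0.17 and CTSW, under the filter, at -0.15. None reached 1.5-fold, all 6 span at most 18.4 kb, and all stayed below 0 with the span trend removed, between -0.29 and -0.06. Around HMGA1, 2 of 6 were below 0. SMIM29, its next named gene, was at 0.02, NUDT3 at 0.22 and PACSIN1 at -0.18. MLN, LINC01016 and MIR1275, under the filter, were at -0.25, 0.02 and 0.20. Gene order is that of GRCh38.p14, genes without a named probe set were passed over, and the difference between the 2 neighbourhoods was not tested.

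Across the whole series, the 2 arrays had a Pearson correlation of 0.9874 over all probe sets and both had a median of 6.885. The melanoma label was checked against markers fixed for this purpose. Of 13 named melanocyte and melanoma markers, 9 passed the filter, with S100B at 13.18, TYR at 11.31, SOX10 at 11.07 and MLANA at 9.57 with control siRNA. TYRP1, PMEL, GPR143 and OCA2 were under it. Of 21 named markers of keratinocytes and epithelia, fibroblasts, endothelium and leukocytes, 5 passed. These were KRT18, LUM, KDR, CLDN5 and CD68, at 11.12, 11.05, 11.20, 8.28 and 10.79 with control siRNA. Their differences of -0.26, 0.48, 0.19, -0.29 and -0.63 followed no common direction. The second brightest KRT18 probe set was at 0.00, so its lower value was not seen on both. The part of these 5 genes in the results was not tested.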

How the data were processed

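Total RNA from 2 cultures was amplified from 100 ng with a whole-transcript kit, labelled with biotin and hybridised to Affymetrix arrays, per the labels' protocols. The deposited values, 1 per probe set and array, were taken as log2 intensities from their range of 2.226 to 14.81. The log base, background correction and summarisation of probes are not given in the sources used here. Sorted values of the arrays differed by at most 0.0301, so these values could not show a shift in RNA content per cell. The number of arrays limits the precision. FOSL1 siRNA was compared with control siRNA by subtraction, with no test, since each group had 1 array.

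The probe table named 16098 probe sets with 1 symbol each, 0 with several, and left 37329 unnamed here. All 14884 genes matched the RefSeq table (GRCh38.p14) by Entrez ID. The brightest probe set stood for a gene. The filter on dim genes kept those whose mean log2 value reached 8.021, the median over named genes.

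Members, gene lists and thresholds were chosen with earlier results of these data known. The text names both members, all AP-1 and HMG genes, members of the other lists that reached 1.5-fold or otherwise up to 2 per direction, the 5 genes closest in values, the 3 on each side of HMGA1 in order of difference, and the 3 nearest genes on each side. LIF, SRF, FGF19 and the genes with printed motif stretches fall outside this rule, as the text says where they appear. Promoter windows came from RefSeq. Alternatives covered scaling, trends on level and span, the filter, probe set averaging and fold thresholds, while the limit of 10 kb on span was added after seeing the data. The calculation was tested on simulated data. Python 3.11.15, pandas 2.3.3, numpy 2.4.6 and statsmodels 0.14.6 (loess fraction 0.4) were used.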

Additional observations from a re-analysis of the deposited data

How the results depend on the processing

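FOSL1 stayed between -1.53 and -1.45 and HMGA1 between -0.59 and -0.38 under the alternatives run. The filters cannot move the difference of 1 gene, and rescaling 2 arrays of nearly equal distribution had little room to do so. The HMGA1 range was set by the dimmer probe set and by removal of the span trend. That range is no sign that the differences would repeat. With no filter, 2 of 14884 named genes (0.0134%) were at or below FOSL1, FOSL1 included. The number of genes at least 1.5-fold lower was 57 and was 35 with the span trend removed, 213 with no filter, 23 with the filter at the 75th percentile, 3 at 2-fold and 274 at 1.3-fold. The number higher was 84 and was 284 with no filter, 15 with the filter at the 75th percentile, 6 at 2-fold and 359 at 1.3-fold. The share of genes at least as low as HMGA1 was 2.08%, and 1.09% with the mean of all probe sets, 1.34% with the filter at the 75th percentile, 3.61% with no filter and 4.77% among genes of at most 10 kb. With the span trend removed, the HMGA2 difference (-1.4e-05) and the let-7 median (-0.0038) changed sign, and the let-7 median was -0.0091 with no filter; each was near 0 to begin with. No paired analysis was possible because each group had 1 array.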
